A study of Homo sapiens with 4 samples.

Results

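Expression of 31 genes of glucose uptake, glycolysis and lactate metabolism was examined in LNCaP prostate cancer cells treated with the KDM5 inhibitor CPI-455. The genes were taken by name from the 60675 genes of the count files. They are 5 glucose and lactate transporters, 9 enzymes of upper glycolysis, 5 of lower glycolysis, 2 lactate dehydrogenase subunits, 4 enzymes that set the level of fructose 2,6-bisphosphate, 4 pyruvate dehydrogenase kinases and 2 phosphoglucomutases. All 31 passed the filter on low counts that left 17600 genes for testing.

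Glycolysis splits glucose into pyruvate in the cytosol. Facilitative transporters of the SLC2A (GLUT) family let glucose in, hexokinases trap it as glucose 6-phosphate, and phosphofructokinase commits it to the pathway under the control of fructose 2,6-bisphosphate. Pyruvate is then either reduced to lactate, which leaves the cell through monocarboxylate transporters, or passed to the mitochondrial pyruvate dehydrogenase complex, which the pyruvate dehydrogenase kinases switch off. Androgen is known to stimulate glucose use in androgen-responsive prostate cancer lines.

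RNA was sequenced from LNCaP, an androgen-responsive human line from a lymph node metastasis of prostate cancer, kept in phenol red-free medium with hormone-depleted serum and added pyruvate. Every culture received 1 nM of the synthetic androgen R1881 for 72 h, so there was no arm without androgen. To it was added either the DMSO vehicle (n = 2) or 50 µM CPI-455 (n = 2), a small molecule that inhibits the KDM5 histone H3 lysine demethylases. The study called the libraries biological replicates of 1 cell line, and with 2 against 2 an exact permutation test cannot go below p = 0.333, so the tests rest on a spread estimated across all genes.

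The vehicle libraries held 19623553 and 20690819 counted fragments and the CPI-455 libraries 9522920 and 5401588, so low genes were measured less precisely with CPI-455. A level of 3 counts equalled 0.137 to 0.142 CPM in the vehicle libraries (CPM being counts scaled to library size after TMM normalization) and 0.337 to 0.595 CPM in the CPI-455 libraries, a limit that covers counting error only. All 10 luminal prostate markers examined were detected, and their summed level was 1039 to 1155 CPM of the unadjusted library total with vehicle and 378 to 432 with CPI-455, and 7 of the 10 were lower at an FDR (Benjamini-Hochberg adjusted p) below 0.05 and by at least 2-fold, beside 21.3% of all genes tested and 24.4% of the protein-coding ones. Summed markers of other cell types were low in every library, at 0.204 to 1.16 for basal epithelium (KRT5 and KRT15 had no count), 0 to 0.840 for leukocytes, 0 to 1.64 for endothelium and 4.45 to 10.00 for fibroblasts, where COL1A1 gave most counts and was higher by the same criteria (log2 fold change 1.00). Mitochondrially encoded genes took 1.91% to 2.43% of the vehicle libraries and 0.967% to 1.24% of the CPI-455 libraries, and the nuclear RNA MALAT1 took 0.0884% to 0.114% and 4.95% to 6.49%. These differences in the make-up of the RNA moved with the treatment. With mitochondrially encoded genes and MALAT1 left out of the normalization factors, the counts and the median given next for the 31 genes were the same (10 lower, 1 higher, median -0.72), and any other part of these differences in the results was not tested.

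With CPI-455, the 3 glucose transporter genes of the list, both hexokinase genes and SLC16A1, 1 of the 2 lactate transporter genes, fell, while all but 1 of the 14 enzymes from GPI to the lactate dehydrogenases changed less than 2-fold. A gene was called when its FDR, the Benjamini-Hochberg adjusted p over all genes in edgeR's quasi-likelihood test, was below 0.05 and its level changed at least 2-fold. By this rule 10 of the 31 genes fell (32.3%), beside 21.3% of all genes tested and 24.4% of the protein-coding ones. They were the glucose transporters SLC2A1, SLC2A3 and SLC2A12, the lactate transporter SLC16A1, both hexokinases HK1 and HK2, the regulators PFKFB2 and TIGAR, and the kinases PDK2 and PDK4. The muscle-type phosphofructokinase PFKM was the 1 gene that rose (3.23%), beside 21.0% of all genes and 15.6% of the protein-coding ones. A further 9 genes were lower and 5 higher with an FDR below 0.05 and a change of less than 2-fold, beside 11.4% and 8.78% of all genes tested (14.3% and 10.7% of the protein-coding ones), and 6 genes did not pass. For 12 of the 31 genes the FDR crossed 0.05 in at least 1 alternative fit. The median log2 fold change, given throughout as CPI-455 over vehicle, was -0.72 over the 31 genes, -0.04 over all genes tested and -0.21 over the protein-coding ones. The replicates of one group did not overlap those of the other for 29 of the 31 genes (93.5%), beside 81.9% of all genes tested and 83.2% of the protein-coding ones. Levels are relative to the other RNA of a library, so fewer transcripts per cell and a shift in the rest of the RNA cannot be told apart.

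**Figure D1:**
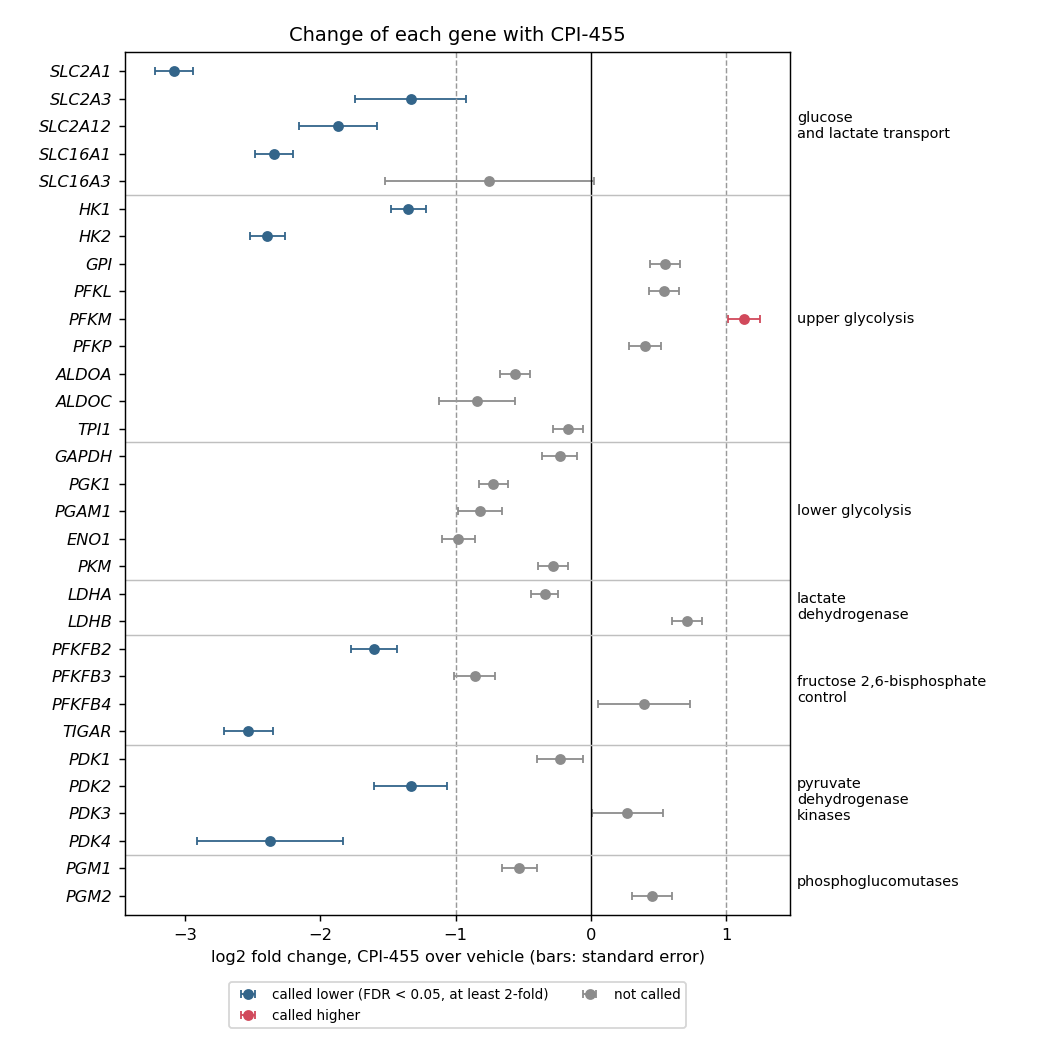
Log2 fold change (CPI-455 over vehicle, horizontal axis) with its standard error for each of the 31 genes, grouped by role, from 2 libraries per group. Blue points are the 10 genes called lower, the red point is PFKM, the 1 gene called higher, grey points were not called, and dashed lines mark a 2-fold change. SLC2A1 lies farthest to the left at -3.08, and the enzymes from GPI to the lactate dehydrogenases lie between -0.98 and 1.13.

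Counted together, the 31 genes took 0.738% and 0.779% of each vehicle library and 0.517% and 0.489% of each CPI-455 library. The 5 transporters went from 0.0837% and 0.0769% to 0.0117% and 0.0142%, and the 2 hexokinases from 0.0447% and 0.0486% to 0.0101% and 0.0102%. The 14 enzymes from GPI to the lactate dehydrogenases moved much less, from 0.573% and 0.617% to 0.476% and 0.444%. Of these 14 enzymes none was called lower and 1 was called higher, beside 21.3% and 21.0% of all genes tested. With an FDR below 0.05 but less than 2-fold, 7 were lower and 4 higher, beside 11.4% and 8.78%. The median log2 fold change of the 14 was -0.26, beside -0.04 over all genes tested. Another 11 genes bring glucose in, phosphorylate it, export lactate or set fructose 2,6-bisphosphate. Of these 8 were called lower and none higher, beside 21.3% and 21.0% of all genes tested, with a median of -1.60. The sets of 14 and 11 were formed with earlier results known, so their contrast is a description only. They put the hexokinases outside upper glycolysis and leave out the pyruvate dehydrogenase kinases and phosphoglucomutases. Of all 9 upper glycolysis genes, hexokinases included, 2 were called lower and 1 higher.

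**Figure D2:**
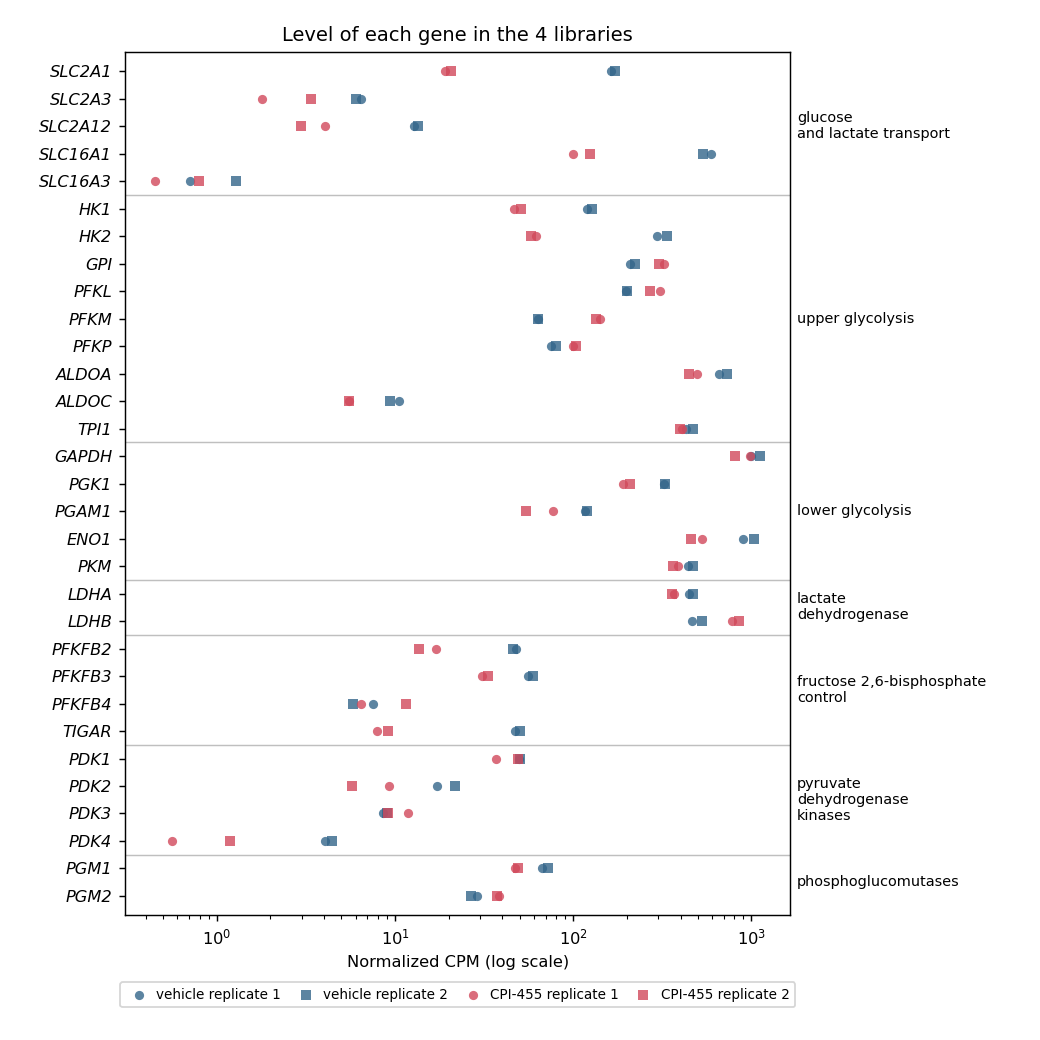
Normalized level (CPM, log scale, horizontal axis) of each of the 31 genes in each of the 4 libraries, grouped by role, with vehicle libraries in blue and CPI-455 libraries in red. The groups overlap for SLC16A3 and PFKFB4 only. SLC2A1 lies at 163 and 171 CPM with vehicle and at 19.1 and 20.6 CPM with CPI-455.

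The 5′ flanking sequence was examined for 3 genes that fell strongly, SLC2A1, HK2 and TIGAR, and for LDHA, a classical glycolytic gene that changed little. Promoters were taken from RefSeq on GRCh38.p14, with at least 1 start for 28 of the 31 genes (58 starts in all). Their intervals ran from 250 bases before a start to a short stretch past it, as at SLC2A1 (42958819 to 42959118, start at 42958868). The windows shown lie in the 250 bases before the start. SLC2A3, PFKFB2 and SLC16A1 were not among them. The letters searched on both strands were GGGCGG (the GC box bound by Sp family factors), ACGTG (the core of hypoxia response elements) and CACGTG (the E-box, which contains ACGTG). The windows below are read 5′ to 3′ on the strand of the gene and show every match at the start nearest the annotated 5′ end of the gene in the files, with the matching letters in capitals. A match can run over into the next window, as at HK2.
SLC2A1, chr1:42958974-42959003, minus strand: ccccgcagagcgCCGCCCaggacaggctgg
SLC2A1, chr1:42958946-42958975, minus strand: gggccccaggccCCGCCCcgaggtcctgcc
HK2, chr2:74833896-74833925, plus strand: caCACGTcccatctcaggcgccCCGCCCct
HK2, chr2:74833920-74833949, plus strand: GCCCctcccCCGCCCcCCGCCCccggcgcg
HK2, chr2:74834017-74834046, plus strand: cgccacggcggcGGGCGGtccgtgggcgca
HK2, chr2:74834066-74834095, plus strand: caatgggcgtgcgCACGTcactgatccgga
TIGAR, chr12:4320984-4321013, plus strand: cgcggactccgcGGGCGGggcctcccgcac
TIGAR, chr12:4321055-4321084, plus strand: cgccgcagccctGGGCGGggcccccgtggc
TIGAR, chr12:4321086-4321115, plus strand: ccctcgtctcccCCGCCCcgtcggcctcgc
TIGAR, chr12:4321129-4321158, plus strand: gccttcggggatgACGTGcgaggccgcctc
LDHA, chr11:18394366-18394395, plus strand: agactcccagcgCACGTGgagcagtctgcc
LDHA, chr11:18394470-18394499, plus strand: gactcaCACGTGggttcccgCACGTccgcc

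At the starts shown, the 250 bases held 2 matches of GGGCGG at SLC2A1, 4 at HK2, 3 at TIGAR and 0 at LDHA. ACGTG matched 2 times at HK2, 1 time at TIGAR and 0 times at SLC2A1. At LDHA it matched 5 times, where each of 2 CACGTG matches counts on both strands. HK2 and LDHA each had 2 starts. The other LDHA start had 4 matches of GGGCGG and 0 of ACGTG. The other HK2 start had 1 of GGGCGG, 4 of ACGTG and 2 of CACGTG. The difference between LDHA and the 3 genes that fell therefore depends on the start shown. GGGCGG was in 62.1% of the 58 promoters of the listed genes and in 42.6% of the 35116 promoters of the table. ACGTG was in 36.2% and 18.5%, and CACGTG in 13.8% and 6.34%. Within the list, ACGTG was in 25.0% of the 16 promoters of genes called lower and in 40.5% of the 42 promoters of the other genes, and GGGCGG was in 56.2% and 64.3%. HK1 gave more of the 16 than any other gene, with ACGTG at none of its starts and no GGGCGG at most of them. PFKM gave more of the 42 than any other gene. These percentages therefore weigh genes by their number of starts and do not compare genes. Several promoters belong to 1 gene, a match is a description of letters only, and the libraries hold no measurement of binding.

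Of the transporters, SLC2A1 changed most. It encodes GLUT1, the widespread basal glucose transporter, and lies on the minus strand of chromosome 1 from 42925375 to 42959173 (ENSG00000117394, GRCh38). SLC2A1 was measured at 163 and 171 CPM with vehicle and at 19.1 and 20.6 CPM with CPI-455. Both CPI-455 libraries were far below both vehicle libraries, and the replicates of each group were close together. The log2 fold change was -3.08 (SE 0.14, FDR = 5.835e-07), an 8.45-fold lower level. Against GAPDH in the same library, SLC2A1 had 0.165 and 0.153 counts per GAPDH count with vehicle and 0.0194 and 0.0255 with CPI-455.

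The other glucose transporters of the list started from lower levels and also fell. SLC2A3 (ENSG00000059804, chromosome 12, minus strand, 7919230 to 7936275) encodes GLUT3, a high-affinity transporter, and was at 6.44 and 6.0 CPM with vehicle and 1.80 and 3.37 CPM with CPI-455. The groups did not overlap, but with CPI-455 the gene rested on 16 and 17 counts, and its log2 fold change was -1.33 (SE 0.41, FDR = 0.0171). The call was lost in DESeq2 (adjusted p = 0.0636), without vehicle replicate 1 (FDR = 0.200) or 2 (FDR = 0.158), and without CPI-455 replicate 1, where the log2 fold change was -0.88.

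SLC2A12 (ENSG00000146411, chromosome 6, minus strand, 133988697 to 134052636) encodes GLUT12. Its levels were 12.8 and 13.5 CPM with vehicle and 4.05 and 2.97 CPM with CPI-455, so every vehicle library was above every CPI-455 library. The log2 fold change was -1.87 (SE 0.29, FDR = 4.150e-04). TBPL1 on the opposite strand shares 38.9% of the exon bases of SLC2A12, and fragments falling there were not assigned, since counting did not use strand. Of the other listed genes PDK2 shared 38.6% of its exon bases in this way, GAPDH 14.2%, ALDOC 10.1% and the rest less.

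Lactate leaves or enters the cell through the monocarboxylate transporters MCT1 (SLC16A1) and MCT4 (SLC16A3). SLC16A1 (ENSG00000155380, chromosome 1, minus strand, 112911847 to 112957013) stood at 594 and 536 CPM with vehicle and at 100 and 124 CPM with CPI-455. It was 5.06-fold lower with CPI-455, with no overlap between groups (log2 fold change -2.34, SE 0.14, FDR = 1.435e-06). Per kilobase of exon it went from 6th to 13th among the 31 genes, and from 106 ± 7.75 (SD, n = 2) to 21.1 ± 3.14 CPM per kilobase. SLC16A3 was almost silent in these cells, at 0.710 and 1.28 CPM with vehicle and 0.45 and 0.793 CPM (4 counts in each library) with CPI-455. Its groups overlapped and no difference was detectable at this depth (FDR = 0.424).

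Both hexokinases fell, and HK2 fell more. HK2 (ENSG00000159399, chromosome 2, plus strand, 74833981 to 74893359) is an isozyme that binds the outer mitochondrial membrane in many cancers. It had 295 and 334 CPM with vehicle and 61.7 and 58.1 CPM with CPI-455. The CPI-455 values lay well below the vehicle values, with a log2 fold change of -2.39 (SE 0.13, FDR = 9.441e-07). HK1 (ENSG00000156515, chromosome 10, plus strand, 69269984 to 69401882), the housekeeping isozyme, had 120 and 127 CPM with vehicle and 46.7 and 50.8 CPM with CPI-455. It was lower in both CPI-455 libraries, 2.54-fold (log2 fold change -1.35, SE 0.13, FDR = 1.726e-05). Because HK2 fell further, HK1 made up 28.2% ± 1.09 (SD, n = 2) of the hexokinase counts per kilobase of exon in vehicle cells and 44.8% ± 2.53 (SD, n = 2) in CPI-455 cells.

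The 3 phosphofructokinase genes, which encode the subunits of the committing enzyme, all had higher levels with CPI-455. PFKM, the muscle-type subunit (ENSG00000152556, chromosome 12, plus strand, 48105139 to 48146404), was at 63.5 and 63.6 CPM with vehicle and at 142 and 135 CPM with CPI-455. The vehicle replicates were nearly the same, and both CPI-455 replicates were more than double their level, with a log2 fold change of 1.13 (SE 0.12, FDR = 3.105e-05). The liver-type PFKL (197 and 201 CPM against 308 and 271 CPM) and the platelet-type PFKP (75.4 and 80.0 CPM against 100 and 104 CPM) passed the FDR but not the 2-fold threshold, at 0.54 and 0.40. PFKP no longer passed the FDR with library totals (0.21), without a filter (0.24) or without either vehicle replicate. PFKM therefore took 26.2% ± 0.114 (SD, n = 2) of the phosphofructokinase counts per kilobase with CPI-455 and 18.5% ± 0.381 with vehicle, and PFKL remained the largest. PFKM was under the 2-fold threshold with library totals as scaling (0.94) and without a filter (0.97), settings that moved the median of all genes tested from -0.04 to -0.23 and -0.41.

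The other enzymes of upper glycolysis changed by less than 2-fold in either direction. GPI, which turns glucose 6-phosphate into fructose 6-phosphate, was at 209 and 221 CPM with vehicle and 324 and 304 CPM with CPI-455 (log2 fold change 0.55, FDR = 0.00176). ALDOA, the main aldolase here with 96.8% to 97.7% of the aldolase counts per kilobase in each library, was at 659 and 725 CPM and then at 492 and 448 CPM (log2 fold change -0.56). ALDOC, the brain-type aldolase, was at 10.5 and 9.39 CPM against 5.51 and 5.55 CPM (log2 fold change -0.84), and it crossed the 2-fold threshold with library totals (-1.03) and with the exon length and GC trend removed (-1.07). ALDOC no longer passed the FDR in DESeq2 (adjusted p = 0.102), under upper-quartile scaling or without either vehicle replicate. TPI1, which interconverts the triose phosphates, had 431 and 471 CPM with vehicle and 407 and 397 CPM with CPI-455 and did not pass (log2 fold change -0.17, FDR = 0.196). Its groups were close but did not overlap, and its direction changed to 0.01 under upper-quartile scaling. In the other direction it passed the FDR with library totals (-0.36, FDR = 0.0122), without a filter (-0.32, FDR = 0.0250) and with the length and GC trend removed (-0.46, FDR = 0.00225).

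Lower glycolysis held the 2 most abundant genes of the list with vehicle, GAPDH and ENO1. None of the 5 was called, beside 21.3% lower and 21.0% higher of all genes tested. However, 4 were lower with an FDR below 0.05 and less than 2-fold, beside 11.4% of all genes, and the median was -0.72. ENO1, which encodes alpha-enolase, had 901 and 1031 CPM with vehicle and 526 and 456 CPM with CPI-455. The levels did not overlap and the log2 fold change of -0.98 (SE 0.12, FDR = 9.641e-05) stopped just short of 2-fold. It passed 2-fold with library totals (-1.16), without a filter (-1.13), with the length and GC trend removed (-1.08) and without vehicle replicate 1 (-1.05) or CPI-455 replicate 1 (-1.08). PGAM1, a phosphoglycerate mutase, was at 116 and 119 CPM against 76.8 and 54.3 CPM (log2 fold change -0.82), and without CPI-455 replicate 1 it was at -1.11. PGK1, the first ATP-producing enzyme of the pathway, was at 323 and 329 CPM against 189 and 207 CPM (-0.72), and the pyruvate kinase gene PKM at 443 and 471 CPM against 388 and 363 CPM (-0.28, FDR = 0.0415). PGAM1, PGK1 and PKM were lower in both CPI-455 libraries than in either vehicle library. PKM lay near the threshold and missed the FDR in 8 of 15 alternatives, with upper-quartile scaling farthest from it (-0.11, FDR = 0.401). Counts per gene do not separate the PKM1 and PKM2 splice forms of PKM.

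GAPDH, the glyceraldehyde 3-phosphate dehydrogenase that the study used as the reference gene of its RT-qPCR, had the highest level per kilobase of exon of the 31 genes in both groups. It was at 988 and 1119 CPM with vehicle and at 986 and 809 CPM with CPI-455. The groups were separated only by the gap between 986 and 988 CPM, and GAPDH did not pass (log2 fold change -0.23, SE 0.13, FDR = 0.136). The value ranged from -0.51 with the exon length and GC trend removed to -0.06 with upper-quartile scaling, and it stayed below 0 in all 16 fits. GAPDH passed the FDR in 6 of the 15 alternatives, among them the replicate block (-0.23, FDR = 0.0471), library totals (-0.42, FDR = 0.0128), no filter (-0.39, FDR = 0.00678), the length and GC trend removed (FDR = 0.00142) and the fit without CPI-455 replicate 1 (-0.38, FDR = 0.00451). Relative to the median of the protein-coding genes it was at -0.02, and at -0.42 with the length and GC trend removed. Set beside 12 other genes in common use as RT-qPCR references, GAPDH had the third smallest change of the 13 after ACTB (-0.04) and SDHA (0.06). KLK3 is the prostate-specific antigen gene. It had 0.409 and 0.319 counts per GAPDH count with vehicle and 0.109 and 0.168 with CPI-455. Pseudogenes named for 13 of the 31 genes numbered 110, of which 56 had a count. Those of GAPDH numbered 65, and those counted held 0.431% to 1.11% of the GAPDH counts, while fragments matching several places were not counted at all.

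The balance of the lactate dehydrogenase subunits shifted toward LDHB. LDHB, the heart-type subunit, had 464 and 531 CPM with vehicle and 780 and 850 CPM with CPI-455, and both CPI-455 values were above both vehicle values (log2 fold change 0.71, SE 0.11, FDR = 4.909e-04). LDHA, the muscle-type subunit, had 447 and 471 CPM with vehicle and 368 and 357 CPM with CPI-455, a smaller difference in the other direction (log2 fold change -0.34, SE 0.10, FDR = 0.0173). The LDHA value lost its direction after correction for exon length and GC (0.03, FDR = 0.766) and missed the FDR under upper-quartile scaling (-0.16) and without either vehicle replicate, whereas LDHB went to 0.90. Within each library LDHB had 1.04 and 1.13 counts per LDHA count with vehicle and 2.12 and 2.38 with CPI-455. Per kilobase of exon the LDHB share was 69.3% ± 1.23 (SD, n = 2) in the vehicle group and 82.4% ± 1.20 (SD, n = 2) in the CPI-455 group, and LDHB went from 4th to 2nd in level among the 31 genes.

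**Figure D3:**
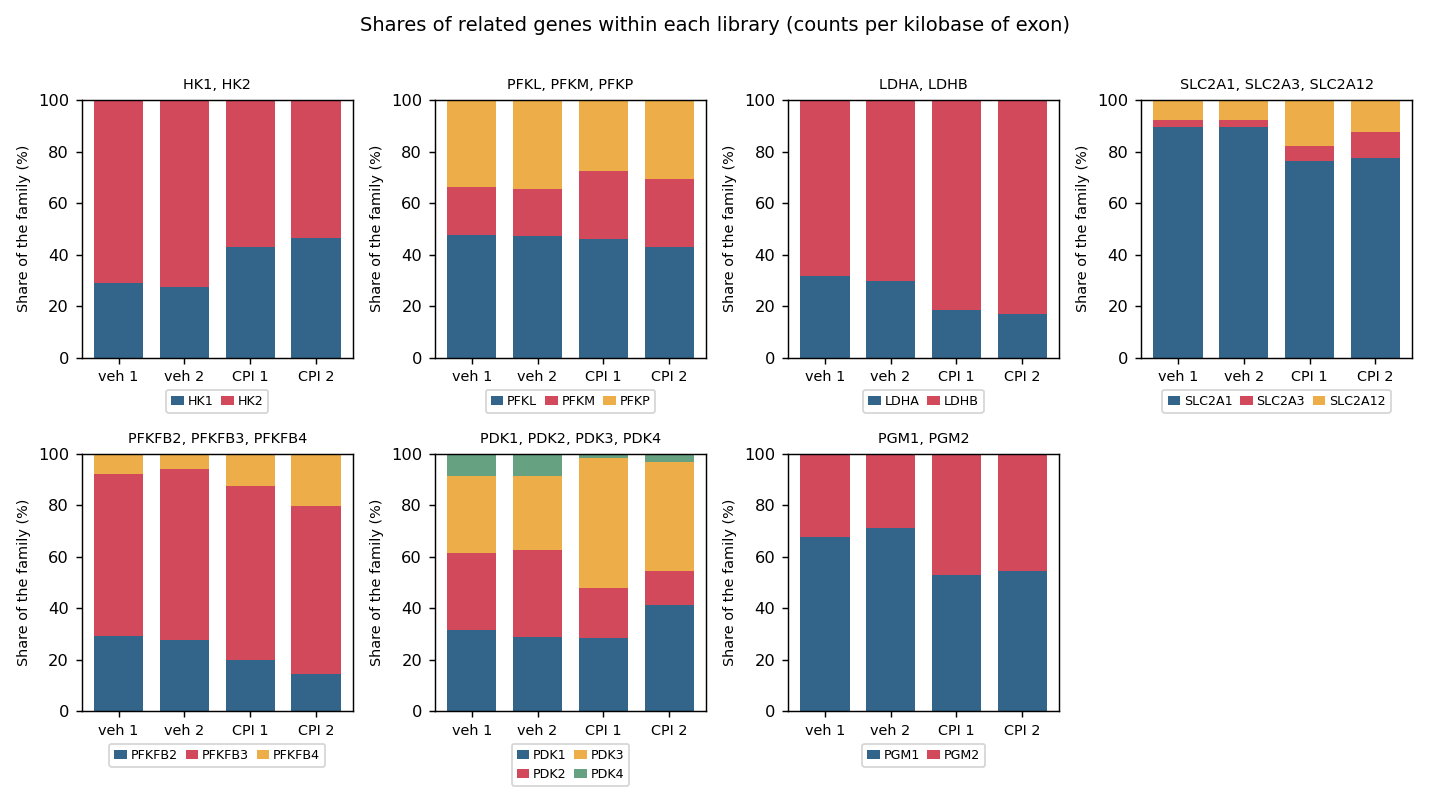
Share of each gene within 7 sets of related genes (percent of the set's counts per kilobase of exon, vertical axis) in the 2 vehicle (veh) and 2 CPI-455 (CPI) libraries, with 1 bar per library. The HK1 share went from 28.2% to 44.8%, the PFKM share from 18.5% to 26.2% and the LDHB share from 69.3% to 82.4% as group means.

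Fructose 2,6-bisphosphate, a potent activator of phosphofructokinase, is made and broken down by the PFKFB enzymes and broken down by TIGAR. TIGAR (ENSG00000078237, chromosome 12, plus strand, 4307763 to 4354593), a p53-induced phosphatase, was at 46.9 and 50.2 CPM with vehicle and at 7.87 and 9.12 CPM with CPI-455. It was 5.78-fold lower, with the groups far apart (log2 fold change -2.53, SE 0.18, FDR = 4.394e-06). PFKFB2 (ENSG00000123836, chromosome 1, plus strand, 207034366 to 207081024), the heart-type enzyme, was at 48.0 and 46.0 CPM and then at 17.0 and 13.7 CPM. Both CPI-455 libraries were lower (log2 fold change -1.60, SE 0.17, FDR = 4.477e-05). PFKFB3, the isozyme with the highest kinase activity relative to phosphatase, was at 55.4 and 59.8 CPM against 30.6 and 33.3 CPM (log2 fold change -0.86, FDR = 7.418e-04), lower in both libraries but by less than 2-fold. PFKFB4 was at 7.48 and 5.82 CPM with vehicle and 6.41 and 11.5 CPM with CPI-455, overlapped between groups and did not pass (log2 fold change 0.39, FDR = 0.346), and it was at -0.05 without CPI-455 replicate 2 and at 0.79 (FDR = 0.00788) without replicate 1. Within the PFKFB counts per kilobase, PFKFB3 kept 63.0% to 67.3% in all 4 libraries, while PFKFB2 was at 28.5% ± 1.27 (SD, n = 2) in the vehicle group and 17.2% ± 4.0 in the CPI-455 group.

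The kinases that shut off pyruvate dehydrogenase did not move as 1 group. PDK4 (ENSG00000004799, chromosome 7, minus strand, 95583499 to 95596491), the starvation-induced kinase, was at 4.07 and 4.40 CPM with vehicle and at 0.562 and 1.19 CPM with CPI-455. The groups did not overlap, and the CPI-455 values rest on 5 and 6 counts (log2 fold change -2.37, SE 0.54, FDR = 0.00392). Without vehicle replicate 1 or 2 PDK4 was at -2.35 (FDR = 0.0514) and -2.25 (FDR = 0.0777), and without CPI-455 replicate 1 or 2 it was at -1.82 and -2.90. PDK2 (ENSG00000005882, chromosome 17, plus strand, 50094737 to 50112152) was at 17.2 and 21.7 CPM against 9.22 and 5.75 CPM. It was lower in both CPI-455 libraries (log2 fold change -1.33, SE 0.27, FDR = 0.00222), and the gene that shares its exon bases is SAMD14 on the opposite strand. PDK1, a hypoxia-induced kinase, was at 49.5 and 50.1 CPM against 36.9 and 49.2 CPM and did not pass (FDR = 0.261), and its log2 fold change of -0.23 went to 0.15 with the length and GC trend removed and to -0.43 (FDR = 0.00272) without CPI-455 replicate 2. PDK3 was at 8.52 and 9.02 CPM against 11.8 and 9.12 CPM and did not pass either (log2 fold change 0.27, FDR = 0.386).

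The phosphoglucomutases, which link glucose 6-phosphate to glycogen and nucleotide sugars, differed in direction. PGM1 was at 67 and 72.5 CPM with vehicle and at 47.3 and 49.2 CPM with CPI-455 (log2 fold change -0.53, FDR = 0.00642). PGM2 was at 28.7 and 26.6 CPM and then at 38.2 and 37.3 CPM (log2 fold change 0.45, FDR = 0.0284). Neither reached 2-fold, and the groups did not overlap for either gene. Both missed the FDR without either vehicle replicate, and PGM2 also in DESeq2, with library totals and without a filter. The PGM2 share of their counts per kilobase was 30.5% ± 2.36 (SD, n = 2) in the vehicle group and 46.4% ± 1.11 in the CPI-455 group.

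Ordered by level per kilobase of exon, a scale that counts all annotated exons and so lowers genes with rare long isoforms, the vehicle cells had GAPDH first at 353 ± 31.2 (SD, n = 2) CPM per kilobase. ENO1 followed at 244 ± 23.3 and TPI1 and LDHB came next at 167 ± 10.5 and 167 ± 15.8, a pair that did not differ beyond its spread. With CPI-455 the order was GAPDH at 301 ± 41.9, LDHB at 273 ± 16.5, TPI1 at 149 ± 2.59 and ENO1 at 124 ± 12.6 CPM per kilobase, and GAPDH and LDHB lay within their spread. HK2 went from 10th place (51.9 ± 4.63) to 17th (9.88 ± 0.424) and SLC2A1 from 12th (33.9 ± 1.22) to 20th (4.03 ± 0.216). SLC16A3, PDK4, SLC2A3 and SLC2A12 were among the 5 lowest in both groups.

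The genes called lower and the other genes of the list had median exon lengths of 5396 and 5415 bases, while those called lower had a lower exon GC content, with medians of 45.6% and 54.7%. Protein-coding genes tested had a median of 48.6%. After each library was corrected for a fitted trend on length and GC, 11 of the 31 genes were called lower (beside 18.9% of all genes in that fit), 9 of them among the 10, with SLC2A3 lost at a log2 fold change of -0.99 (FDR = 0.0518) and ALDOC and ENO1 gained.

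**Figure D4:**
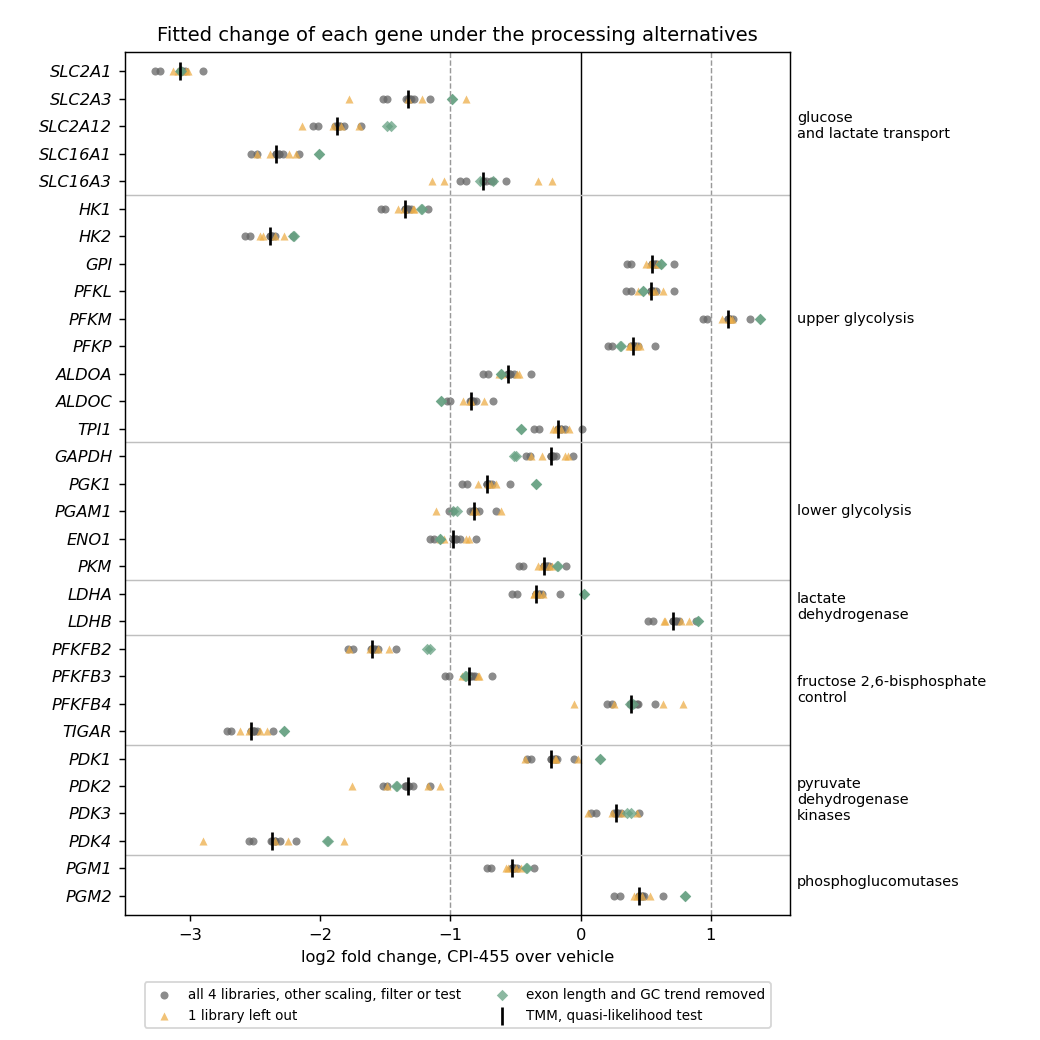
Log2 fold change (CPI-455 over vehicle, horizontal axis) of each gene in the fit used throughout (black bar) and in 15 alternatives: other scaling, filters or tests (grey), 1 library left out (orange) and the exon length and GC trend removed (green). SLC2A1, SLC16A1, HK1, HK2, TIGAR, PFKFB2, SLC2A12, PDK2 and PDK4 stay left of the dashed 2-fold line in every fit shown for them. LDHA, PDK1, TPI1 and PFKFB4 cross 0 in at least 1 fit.

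Beyond the 31 genes, 67 other genes of glucose metabolism were listed, and 53 of them were expressed enough to be tested. Of these 7 were called higher (beside 21.0% of all genes) and 12 lower (beside 21.3%), with a median log2 fold change of -0.12. By a fixed rule the 4 with the largest change in each direction are named, and further genes are named after their values were seen only where a list had 5 or fewer calls in a direction.

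MLXIPL, which encodes the glucose-sensing factor ChREBP, changed most, from 13.4 and 9.80 CPM to 152 and 116 CPM (log2 fold change 3.53, SE 0.20, FDR = 1.290e-06). TXNIP, which promotes the internalization of GLUT1 and is known as a ChREBP target, was at 8.33 and 8.56 CPM with vehicle and 37.0 and 33.5 CPM with CPI-455 (log2 fold change 2.06, FDR = 1.541e-05). Both genes were several-fold higher in each CPI-455 library than in each vehicle library. MYC, HIF1A, MLX and MLXIP, the other 4 regulators listed, were not called, and HIF1A was at -0.12 (FDR = 0.489).

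Among the other transporters and their partners 12 of 13 were tested, 3 were called higher and 5 lower, beside 21.0% and 21.3% of all genes tested. SLC2A4, the insulin-responsive GLUT4, was at 0.663 and 1.19 CPM with vehicle and 7.65 and 3.57 CPM with CPI-455 (log2 fold change 2.62, FDR = 0.00273), a low level in all libraries, and it was at 1.93 without CPI-455 replicate 1. SLC2A11 (1.18) and TXNIP made up the 3. SLC2A10 (GLUT10) fell from 26.2 and 25.0 CPM to 2.25 and 7.34 CPM (log2 fold change -2.55, FDR = 4.057e-04). Without CPI-455 replicate 1 it was at -1.80 and without replicate 2 at -3.50. The monocarboxylate transporter SLC16A7 was at 3.22 and 2.43 CPM and then at 0.112 and 0.991 CPM, on 1 and 5 counts (log2 fold change -2.60, FDR = 0.0179). That call was lost without vehicle replicate 1 (FDR = 0.172) or 2 (FDR = 0.0827), and the value was -1.50 without CPI-455 replicate 1 and -4.56 without replicate 2. Basigin (BSG, log2 fold change -1.09) and embigin (EMB, -1.26), the chaperones that carry monocarboxylate transporters to the membrane, and SLC2A13 (-1.40) were the other 3 called lower.

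Of the 11 genes for the entry of pyruvate into mitochondria 1 was called higher and 4 lower, beside 21.0% and 21.3% of all genes tested. The same shares stand beside the counts of the other lists in this paragraph. PDHA1, the E1 alpha subunit of pyruvate dehydrogenase, was called higher (1.03). DLAT (-1.69) and DLD (-1.43), its E2 and E3 subunits, were called lower. So were PDP1 (-1.75), a phosphatase that counters the kinases, and PDPR (-1.14), a regulatory subunit of the phosphatase. PDP2, the other such phosphatase listed, was higher by less than 2-fold (0.64, FDR = 0.00126). So were PDHB (0.85, FDR = 4.556e-04) and MPC1 (0.48, FDR = 0.0150), while MPC2, PDHX and PC did not pass the FDR. Among other isozymes 8 of 17 were tested, with the muscle enolase ENO3 called higher (14.1 and 12.0 CPM against 80.6 and 59.3 CPM, log2 fold change 2.43, FDR = 6.517e-06) and BPGM, which makes 2,3-bisphosphoglycerate, called lower (-1.91, FDR = 4.243e-05). In glycogen metabolism 7 of 8 were tested, and the branching enzyme gene GBE1 (-2.15, FDR = 5.047e-04) and the phosphorylase gene PYGB (-1.14) fell. GBE1 was at 30.4 and 30.6 CPM with vehicle and 9.56 and 3.17 CPM with CPI-455, and at -3.26 without CPI-455 replicate 1 and -1.67 without replicate 2. Of the 5 gluconeogenic genes 2 were tested and neither was called.

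**Figure D5:**
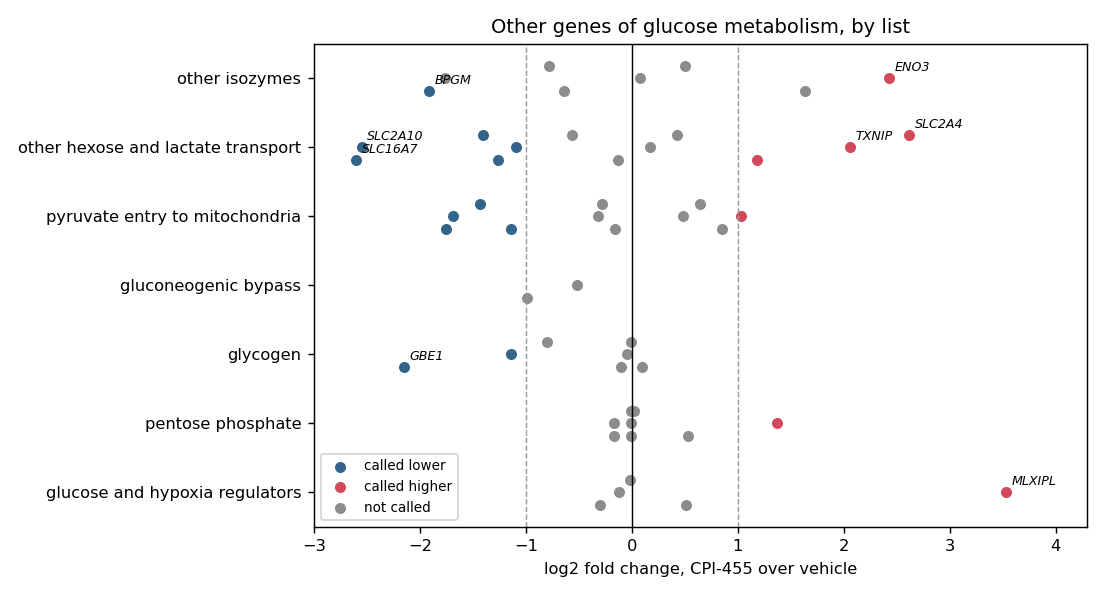
Log2 fold change (CPI-455 over vehicle, horizontal axis) of the 53 tested genes of 7 other lists of glucose metabolism, 1 point per gene, with the 8 genes named by rule labelled. Called genes are blue (12 lower) or red (7 higher), grey points were not called, dashed lines mark a 2-fold change, and the vertical offset within a list only separates points.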

How the data were processed

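Reads were trimmed by the authors (Trim Galore, cutadapt) and mapped with STAR against GRCh38, and featureCounts v1.5.0-p1 assigned fragments to the genes of Ensembl release 83. Each of the 4 deposited tables holds raw counts, not normalized. Per the file headers, fragments were counted and other options were left at default, so strand was ignored and neither multi-mapping fragments nor those on more than 1 gene were assigned. How RNA was selected and whether libraries were stranded are not given in the sources used here.

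Symbols were matched for 56558 of the 60675 genes. Libraries were compared in edgeR 4.0.16 (R 4.3.3) on all genes, with TMM normalization, filterByExpr (minimum count 10), glmQLFit and glmQLFTest without covariates, and Benjamini-Hochberg adjustment over 17600 genes. The study's thresholds (FDR below 0.05, at least 2-fold) defined the called genes. Levels are CPM with TMM-adjusted library sizes, and values per kilobase divide them by the summed length of all annotated exons. The standard error is the log2 fold change divided by the square root of the F statistic. Shares within related genes and ratios are given without a test. The fit was run before use on simulated counts in which few genes changed, equally in both directions, with the same spread for every gene. That setting lacked the wide changes and the unequal replicate agreement of these libraries, so it was a check of the code only.

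The 31 genes and the other gene lists were chosen with earlier results of these data known, and no test of a list was made. Some genes of these lists are not reported here by name. All 31 are named, with full statistics for those called and for GAPDH, and of the other pathway genes the rule named up to 4 called in each direction with the largest change, leaving out those whose log2 CPM averaged under 1. Further genes, called or not, were named after their values were seen. Groups and replicate numbers were taken from the sample labels. The vehicle and CPI-455 replicates differed in their counts (correlation of log2 CPM 0.993 and 0.946), and the common biological coefficient of variation was 0.126. The alternatives were other scalings, filters and thresholds, DESeq2 1.42.0, a likelihood-ratio test, a replicate block, each library left out and a length and GC trend (mgcv 1.9.3) removed.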

Additional observations from a re-analysis of the deposited data

How the results depend on the processing

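Over the alternatives to the fold changes of the 31 genes, 434 of 463 values kept their direction and their call (FDR and 2-fold together), 10 called values lost the call, 13 uncalled ones gained it and 6 changed sign. The FDR alone crossed 0.05 in 47 of the 463 values, in 12 genes (PKM 8, GAPDH 6, SLC2A3, LDHA and PGM2 5 each, PFKP, ALDOC and TPI1 4 each, PDK4 and PGM1 2 each, PFKFB4 and PDK1 1 each). SLC2A1, SLC2A12, SLC16A1, HK1, HK2, PFKFB2 and TIGAR were called lower in all 18 settings. The number called lower ranged from 8 with glmTreat (PDK2 and SLC2A3 lost, beside 13.4% of all genes) to 14 with library totals alone (ALDOC, ENO1, PFKFB3 and PGAM1 gained, beside 25.9%), and from 8 to 11 with 1 library left out (beside 17.0% to 25.0%). The number called higher was 0 with library totals, without a filter and with glmTreat, since PFKM then missed the 2-fold threshold or its test (beside 17.8%, 9.92% and 13.9% of all genes), and otherwise 1. The other pathway genes called lower numbered 6 with glmTreat. For the 8 other genes named by rule, a check added after seeing the data kept the call in 117 of 119 values, and the 2 lost were those of SLC16A7 without a vehicle replicate. The median of the 31 genes was -0.54 with upper-quartile scaling, -0.91 with library totals, -0.87 without a filter, -0.51 with at least 10 counts in every library (29 genes) and -0.61 with the length and GC trend removed, with or without the block, and it lay between -0.71 and -0.47 with 1 library left out. The median of all genes itself moved to 0.14 with upper-quartile scaling, -0.23 with library totals and -0.41 without a filter (33392 genes). The signs changed for TPI1 (0.01, upper quartile), LDHA (0.03) and PDK1 (0.15) with the length and GC trend removed, with or without the block, PFKFB4 (-0.05 without CPI-455 replicate 2 and up to 0.79 without replicate 1) and the difference in the PDK1 share (-1.67 percentage points, without CPI-455 replicate 2). With 1 library left out, the group of 1 is assumed to vary like the other, and the causes of these shifts were not tested.

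Replicates are numbered 1 and 2 in each group of the labels, and nothing says that same-numbered cultures were grown together. Deviations from the group means correlated at 0.04 between same-numbered libraries over all genes tested and at 0.13 over those whose mean log2 CPM was 5 or more. With the replicate number as a block 10 of the 31 genes were lower, the same 10, and PFKM was higher, with a median of -0.67 (3422 genes higher and 3745 lower in all).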
